A study of Mus musculus with 36 samples.

Results

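The lines compared were the female line of lot 8 and the female line of lot 7, both of transformed mouse astrocytes. They hold 8 of the 36 libraries of the series, 4 per line, found by the lot, sex and replicate number in the labels. All 10 lines of the series share the genotype Nf1-/- DNp53, which joins loss of Nf1, a brake on Ras signalling, with a dominant-negative form of p53. They also share their culture, DMEM/F12 medium with serum and antibiotics, and no treatment is named. Lines differ in lot, which stands for a separate litter and is also called the batch, and in sex, with 1 female and 1 male line in each of 5 lots. Libraries were made by BRB-seq, in which barcoded cDNAs primed from the poly(A) tail are pooled and the 3' ends of transcripts are counted. Nothing states that the 4 libraries of a line came from separate cultures, so p-values measure only the spread between libraries, which may be technical. With 1 line per sex and lot, the effects of litter, batch and line cannot be told apart. Within a lot, the effect of sex cannot be separated from that of line. A difference between the sexes below compares the lot 8 over lot 7 change of the female lines with that of the male lines. It is a difference among 4 lines and no test of sex. In such bulk libraries, fewer cells of a type and less RNA per cell cannot be told apart either.

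The pair was chosen from measured values, as female lines at opposite ends of the levels of extracellular matrix and NF-kB target genes. A score was computed for each gene list in each library as the mean of log2 CPM over its genes, each gene being centred on its average in the 10 lines. CPM are counts per 1000000 counts of the TMM-scaled library. For 82 matrix genes the lot 8 female line had the lowest score of the 5 female lines, -0.23 ± 0.1102 (SD, n = 4), but the lot 7 female line was close by, at -0.13 ± 0.185, and the highest was the lot 12 female line at 0.72 ± 0.326 (SD, n = 3). The pair therefore did not span the range of this matrix list. It did span the 14 mesenchymal transition genes, where the lot 7 female line was the highest of all 10 lines, 0.28 ± 0.1303, and the lot 8 female line the lowest, -0.35 ± 0.0715. For 29 NF-kB target genes the lot 8 female line was the highest female line, 0.28 ± 0.202, and the lot 7 female line, -0.21 ± 0.06203, was above only the lot 11 female line, -0.25 ± 0.133. The genes used for the choice were not given. Lists of matrix and NF-kB target genes were therefore rebuilt here, and the mesenchymal list was set apart with them. These are called the choosing lists below, and whether they match the genes used is not known. Because they stand for the choice, their genes are described in the female lines by values and log2 differences, with no test. They were tested in the male lines of the same lots, which the choice did not use. Genes outside these lists were tested in the female lines as well, but in the same libraries that chose the pair. Those tests are not independent of the choice. Genes with a part in the matrix, such as Tinagl1 and Ltbp1, may even have been used in it.

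**Figure D1:**
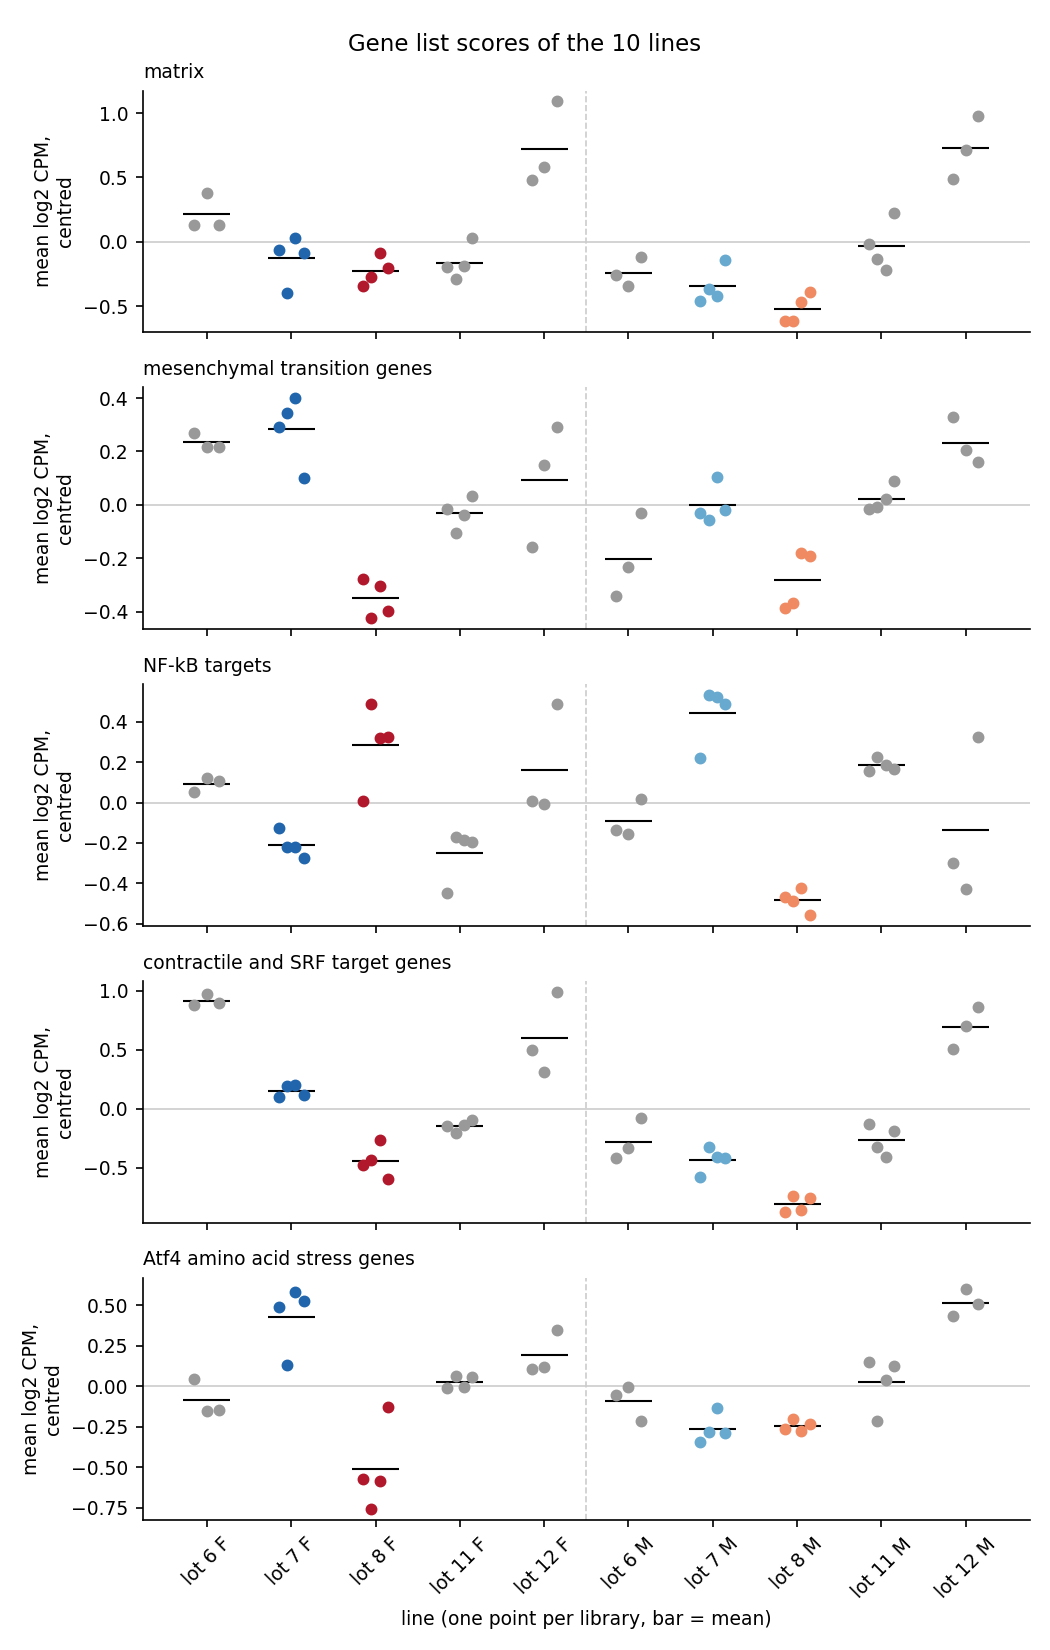
Scores of 5 gene lists in each library (points) and line (bars show means), with lot 8 in red and orange and lot 7 in dark and light blue. The y axis is the mean log2 CPM of a list's genes, centred over the 10 lines. The lot 8 and lot 7 female lines lie apart for every list but the matrix list, and for NF-kB targets the male lines of the same lots lie in the opposite order.

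NF-kB dimers are held in the cytoplasm by inhibitor proteins such as the product of Nfkbia, and when a kinase complex marks the inhibitor for destruction they enter the nucleus and raise chemokine genes as well as the genes of their own inhibitors. Type I collagen, the main fibrillar collagen, is assembled from the chains of Col1a1 and Col1a2 and is cross-linked by lysyl oxidases. Actin and its contractile partners are driven by serum response factor (SRF), which binds a DNA element called the CArG box. Atf4 is a transcription factor made when amino acids run short or proteins misfold, and it raises genes of amino acid supply and of the stress response.

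The 8 female libraries held 4358098 to 5973277 counts and 12654 to 13611 detected genes, and 3 counts in a library stood for 0.502 to 0.688 CPM. Replicate 4 stood apart in both lines, with 0.324% mitochondrial mRNA in lot 8 and 0.349% in lot 7. The other 6 libraries held 0.608% to 0.770%. Replicate 4 was low in the male lines of these lots too, at 0.251% in lot 8 and 0.336% in lot 7. In the lot 11 lines it stood at 0.315% (female) and 0.333% (male). The main counts are therefore also given without replicate 4. Xist, the RNA of the inactive X chromosome, was 3.101, 6.11, 0.182 and 6.16 CPM in replicates 1 to 4 of lot 8 and 3.13, 6.301, 7.65 and 7.06 CPM in lot 7, against at most 0.289 CPM in the 8 male libraries of these lots. Replicate 3 of the lot 8 female line was thus at the level of the male libraries for this RNA, while the Y-linked gene Ddx3y averaged 0.08795 CPM in its line against 16.8 CPM in the lot 8 male line. Nf1 averaged 2.27 ± 1.79 and 1.99 ± 0.741 CPM (SD, n = 4), and counts taken at the end of a transcript cannot test for a deletion further up the gene. Trp53 averaged 304 ± 48.8 CPM in lot 8 and 207 ± 36.3 CPM in lot 7, a log2 fold change of 0.55 (SE 0.12, adjusted p 8.11e-04), whereas in the male lines it changed the other way, -0.63 (SE 0.12, adjusted p 3.07e-04). The counts do not separate the introduced p53 from the cells' own.

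Markers of the labelled cell type were mostly missing. Gfap, a filament protein used as an astrocyte marker, had no count in any of the 8 libraries. Of 16 astrocyte markers 4 averaged over 1 CPM in the lot 8 line and 3 in the lot 7 line. Gja1, the astrocyte gap junction protein, averaged 153 ± 22.8 and 83.5 ± 37.4 CPM and was called higher in lot 8, with a log2 fold change of 0.88 (SE 0.26, adjusted p 0.0135), a call that was lost without lot 7 replicate 3 (adjusted p 0.0736) and by DESeq2 (adjusted p 0.0875). Of 10 neural progenitor markers 7 averaged over 1 CPM in each line, among them Nes at 76.98 ± 11.2 and 74.5 ± 13.5 CPM. Of 13 microglia and macrophage markers 9, among them Csf1r, C1qa and Trem2, had no count in either line.

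Promoter sequences are shown for genes whose lists the results turn on, since each list stands for a factor with a known binding element. They come from RefSeq on build GRCm38.p6, 5′ to 3′ on the strand of the gene, with the matched element in capitals. Each is a stretch of 120 bases out of the 250 before the transcription start, placed to hold the match, so some end short of the start. The element searched was TGATGNAA for the Atf4 list, the CArG box CCWWWWWWGG for the contractile list and the kB consensus GGGRNWYYCC for NF-kB targets. N stands for any base, W for A or T, R for A or G and Y for C or T. Each was searched on both strands of the 250 bases before the start, with no mismatch allowed. Over all 32851 promoter windows, TGATGNAA was present in 3.45%, the CArG box in 1.47% and the kB consensus in 3.90%. Among the genes tested, TGATGNAA was present for 7 of the 22 Atf4 genes with a window, the CArG box for 6 of 26 contractile genes and the kB consensus for 13 of 23 NF-kB targets. The table held no window for Slc7a5, Cth, Actg2, Tgfb1i1, Pxn, Nfkbiz, Relb, Ccl2, Ccl5, Ccl7 and Vcam1. All stretches shown are of genes with a match, while the windows of Acta2, Cnn1 and Ddit3 held no exact match to the element of their list. The Acta2 window did hold ccctatatgg and ccttgtttgg, which come close to the CArG pattern without matching it, so it is not shown to lack a CArG box. A match is a description of the letters and not a measured binding site.
Nupr1, chr7:126625511-126625630, minus strand: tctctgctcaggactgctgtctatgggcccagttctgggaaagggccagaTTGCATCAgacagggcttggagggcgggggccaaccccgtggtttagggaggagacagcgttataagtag
Chac1, chr2:119350999-119351118, plus strand: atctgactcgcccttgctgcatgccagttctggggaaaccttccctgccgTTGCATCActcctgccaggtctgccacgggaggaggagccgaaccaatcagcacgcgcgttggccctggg
Herpud1, chr8:94386267-94386386, plus strand: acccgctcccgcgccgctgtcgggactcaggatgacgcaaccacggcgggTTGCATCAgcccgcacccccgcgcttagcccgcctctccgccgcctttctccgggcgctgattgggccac
Asns, chr6:7693210-7693329, minus strand: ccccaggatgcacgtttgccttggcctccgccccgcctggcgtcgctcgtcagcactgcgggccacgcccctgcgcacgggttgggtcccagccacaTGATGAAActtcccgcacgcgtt
Myl9, chr2:156775253-156775372, plus strand: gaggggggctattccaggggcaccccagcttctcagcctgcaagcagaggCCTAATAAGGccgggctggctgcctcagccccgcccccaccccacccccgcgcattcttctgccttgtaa
Nfkbia, chr12:55492648-55492767, minus strand: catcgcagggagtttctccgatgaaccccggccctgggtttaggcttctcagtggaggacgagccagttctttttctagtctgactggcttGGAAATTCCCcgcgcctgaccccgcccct
Ier3, chr17:35821571-35821690, plus strand: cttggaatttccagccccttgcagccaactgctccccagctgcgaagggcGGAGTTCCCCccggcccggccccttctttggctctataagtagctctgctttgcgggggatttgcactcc
In Nupr1, Chac1 and Herpud1 the capitals read TTGCATCA, which is TGATGNAA on the opposite strand.

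Over all genes, the female lines differed in 2296 of 12173 genes tested, or 18.9%, at an adjusted p under 0.05 by edgeR's quasi-likelihood test. Of these, 1160 were higher in lot 8, or 9.53%, and 1136 were lower, or 9.33%, and 589 differed at least 4-fold. Without replicate 4 of either line the calls were 879 higher and 863 lower, and without replicate 3 of the lot 8 line they were 980 and 1089. Because the pair was picked for being far apart, this count is a background for the lists and is not read as a result. The median log2 fold change over all genes was -0.02. With library totals in place of TMM scaling this median was -0.09, and the calls were 947 higher and 1404 lower.

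The matrix genes of the female lines did not lie in 1 direction. Of 86 listed members 82 had enough counts to be tested, and of these 16 were higher in all 4 lot 8 libraries than in any lot 7 library and 30 were lower in all 4, where 20.8% of all genes tested were separated, 10.4% in each direction, and the median log2 difference was -0.37. The chains of type I collagen lay opposite ways. Col1a2 (GRCm38 chromosome 6, 4504814 to 4541544) stood at 480.2, 491, 550.5 and 455 CPM in lot 8 and at 10.9, 8.401, 6.87 and 12.6 CPM in lot 7. Col1a1 (GRCm38 chromosome 11, 94936224 to 94953042) stood at 5.49, 9.596, 7.83 and 7.04 CPM in lot 8 and at 41.6, 37.3, 42.8 and 108 CPM in lot 7. The libraries of the lines did not overlap for either gene, and the log2 differences of lot 8 over lot 7 were 5.67 (SE 0.44) for Col1a2 and -2.94 (SE 0.35) for Col1a1. Both lines stood outside the other female lines for Col1a2, which averaged 23.8 to 45.5 CPM there, and for Col1a1 only the lot 8 line did, against 20.1 to 195 CPM.

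Among other collagens, Col5a1 averaged 23.9 ± 5.602 CPM in lot 8 and 65.7 ± 13.00 CPM in lot 7 (SD, n = 4), and Col12a1 17.02 ± 4.46 and 65.7 ± 12.2 CPM. The network collagens of basement membranes were near level, with Col4a1 at 176 ± 26.1 and 184 ± 20.9 CPM. Of 13 enzymes that modify collagen, 8 were lower in all lot 8 libraries and 1 was higher, against the same 10.4% each way. They included the cross-linking enzyme Lox, at 48.4, 40.6, 41.3 and 41.2 CPM in lot 8 and 108, 93.3, 78.3 and 123 CPM in lot 7, its relative Loxl1, at 128 ± 7.44 and 207 ± 27.4 CPM, and Serpinh1, the collagen chaperone, at 395 ± 64.7 and 546 ± 106 CPM.

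Glycoproteins and proteoglycans leaned to lot 8, with a median log2 difference of 2.28 over 16 genes. Efemp1, an elastic fibre protein, stood at 172, 184, 168 and 231 CPM in lot 8 and 8.21, 2.28, 14.8 and 6.39 CPM in lot 7. Bgn, the proteoglycan biglycan, stood at 229, 220.5, 239.8 and 254 and 23.5, 9.63, 46.1 and 9.75 CPM. Fn1, fibronectin, stood at 260.0, 244, 268 and 349.5 and 109, 117, 138 and 222 CPM, a smaller difference of 0.94 (SE 0.29) on the log2 scale, but every lot 8 library was higher than every lot 7 library. Fstl1 and Efemp2, of the same group, lay the other way, at 314 against 525 CPM and 186 against 244 CPM. Markers of fibroblasts and meningeal cells, which make such proteins, summed to 26.0 to 48.4 CPM in the lot 8 libraries and 7.35 to 11.1 CPM in the lot 7 libraries, with 4 and 3 of 11 markers over 1 CPM and Pi16 and Slc6a13 without a count in either line, and their part in these values was not tested.

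Matricellular proteins, which signal to cells from the matrix, leaned to lot 7, with a median of -0.94 over 10 genes. Ccn2, a product of TGF-beta and YAP signalling, stood at 210.4, 191, 229 and 151 CPM in lot 8 and 1028, 1000.3, 1064 and 1154 CPM in lot 7. Ccn1 averaged 371 ± 60.9 and 710.4 ± 73.3 CPM and Thbs1 278 ± 41.3 and 468 ± 104 CPM. Spp1, osteopontin, was the 1 member higher in all lot 8 libraries, at 1969, 1945, 2098 and 1451 CPM in lot 8 and 551, 594, 593 and 417 CPM in lot 7. Of 17 proteases and their inhibitors 8 were lower in all lot 8 libraries, 4 were higher and 5 overlapped, with a median of -1.08. Over all genes tested 10.4% were separated in each direction. Mmp14, a membrane-bound collagenase, was lower at 29.3 ± 5.88 against 49.98 ± 14.7 CPM, a log2 difference of -0.77, or -0.47 without replicate 4 of either line, while the inhibitor Timp1 and the urokinase receptor Plaur were higher, Timp1 at 3135 ± 546 against 1921 ± 283 CPM and Plaur at 179 ± 29.2 against 81.6 ± 13.5 CPM.

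Of 17 mesenchymal transition genes 14 could be tested, and of these 7 were lower in all lot 8 libraries and 3 were higher, where 10.4% of all genes were separated in each direction. The transcription factor Snai2 stood at 1.91, 3.27, 5.64 and 1.23 CPM in lot 8 and 33.2, 33.8, 30.6 and 35.98 CPM in lot 7, and Tcf4 at 35.8, 32.3, 30.2 and 27.97 and 168, 230.2, 207 and 212 CPM. Tagln, an actin-binding protein of smooth muscle, averaged 492 ± 27.5 and 1112 ± 54.1 CPM. The filament gene Vim and S100a4 lay the other way, Vim at 3706 ± 241 against 2963 ± 237 CPM and S100a4 at 165 ± 26.3 against 37.6 ± 4.62 CPM.

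NF-kB targets leaned to lot 8, with a median log2 difference of 0.24 over 29 measured genes of 42. Of these, 6 were higher in all lot 8 libraries, 2 were lower, and the other 21 overlapped, against 10.4% of all genes separated in each direction. The chemokine Ccl2 stood at 32.4, 35.5, 42.04 and 9.499 CPM in lot 8 and 13.3, 6.13, 8.903 and 6.72 CPM in lot 7, so that lot 8 replicate 4 fell within the range of lot 7. Ier3, an early response gene whose promoter match is shown, stood at 102, 113, 97.7 and 108 and 59.4, 61.96, 32.2 and 45.7 CPM with no overlap. Relb, a subunit of the alternative NF-kB pathway, stood at 11.2, 23.1, 15.5 and 12.7 and 8.601, 6.301, 11.6 and 3.19 CPM, with 1 library of each line within the range of the other.

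Of 9 inhibitors and feedback genes that NF-kB itself induces, 2 were higher in all lot 8 libraries and 7 overlapped, against 10.4% separated in each direction over all genes. The 2 were Tnip1, at 26.9 ± 5.38 against 14.97 ± 2.302 CPM, and Nfkbie, at 2.65 ± 0.476 against 0.762 ± 0.506 CPM, the latter named after its values were seen. Nfkbia, whose promoter match is shown, stood at 74.4, 79.8, 72.8 and 65.8 CPM in lot 8 and 48.9, 69.1, 41.1 and 74.8 CPM in lot 7. Tnfaip3 averaged 2.895 ± 1.76 and 3.23 ± 1.33 CPM and the subunit gene Nfkb2 40.2 ± 10.5 and 35.6 ± 4.09 CPM. The chemokine Cx3cl1 averaged 121 ± 24.6 and 85.7 ± 12.5 CPM and the adhesion protein Vcam1 42.8 ± 4.36 and 26.2 ± 8.35 CPM. Ptgs2, the inducible prostaglandin synthase, was lower in all lot 8 libraries, at 19.2 ± 5.11 against 56.3 ± 3.06 CPM, and the growth factor Csf1 had a lower mean, 71.5 ± 7.01 against 108 ± 37.1 CPM, with overlap.

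In the male lines of the same lots, NF-kB targets were more often lower in lot 8. There 9 of 29 were lower in lot 8 than in lot 7, 2 were higher and 18 did not pass, where 6.16% of all genes tested were called lower and 4.7% higher, and the median was -0.82 against -0.01 over all genes. Nfkbia fell from 126 ± 11.9 CPM in lot 7 to 45.3 ± 6.699 CPM in lot 8 (SD, n = 4), a log2 fold change of -1.48 (SE 0.15, adjusted p 4.23e-09). Its libraries stood at 48.3, 46.2, 50.9 and 35.6 CPM in lot 8 and 126, 137, 133 and 109.9 CPM in lot 7, with no overlap. Relb fell by 2.26 (SE 0.41, adjusted p 1.55e-04), Ccl2 by 2.06 (SE 0.36, adjusted p 8.09e-05) and Cx3cl1 by 2.12 (SE 0.19, adjusted p 1.56e-10) on the log2 scale. Csf1 and Sod2, the mitochondrial superoxide dismutase, rose by 0.61 and 0.58. Ptgs2, which lay lower in lot 8 among the female libraries, also fell, with a male log2 fold change of -1.02 (SE 0.23, adjusted p 0.00243).

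Of 82 matrix genes of the male lines 14 fell and 7 rose, or 17.1% and 8.54%, against 6.16% and 4.7% of all genes. Without replicate 4 of either line 9 fell, and 4 rose without lot 7 replicate 2. Col1a2, which lay far higher in lot 8 among the female lines, rose from 11.8 ± 7.64 to 305 ± 33.8 CPM, a log2 fold change of 4.67 (SE 0.42, adjusted p 1.56e-10). Col1a1 rose too, from 20.2 ± 8.35 to 79.6 ± 21.7 CPM, a log2 fold change of 1.98 (SE 0.30, adjusted p 1.35e-05), while among the female lines it was lower in lot 8. Efemp1 (log2 fold change 2.22, SE 0.26, adjusted p 9.22e-08) and Timp1 (log2 fold change 0.70, SE 0.14, adjusted p 5.80e-04) also rose, while Loxl1 (log2 fold change -1.91, SE 0.16, adjusted p 3.08e-11) fell. Bgn and Spp1 did not pass, at 189 against 106 CPM and 1516 against 1464 CPM. Of the 14 mesenchymal genes 1, or 7.14%, rose and 4, or 28.6%, fell. The former was Vim (log2 fold change 0.47, SE 0.07, adjusted p 2.27e-05). The latter included Tagln (log2 fold change -0.74, SE 0.16, adjusted p 0.00144) and Tcf4 (log2 fold change -0.84, SE 0.16, adjusted p 2.00e-04). The male lines also differed in depth, with 5496120 counts on average in lot 8 and 6671530 in lot 7, and in the share of ribosomal protein mRNA, both at the smallest p of an exact 2-sided permutation test, 0.0286 (0.0429 adjusted over 6 measures). With the counts of all libraries thinned to the smallest total, 9 NF-kB targets were lower and 2 higher in the male lines, and 13 matrix genes were lower and 6 higher. Without replicate 4 of either male line, 31 of the 125 matrix, mesenchymal and NF-kB genes tested passed in place of 37.

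**Figure D2:**
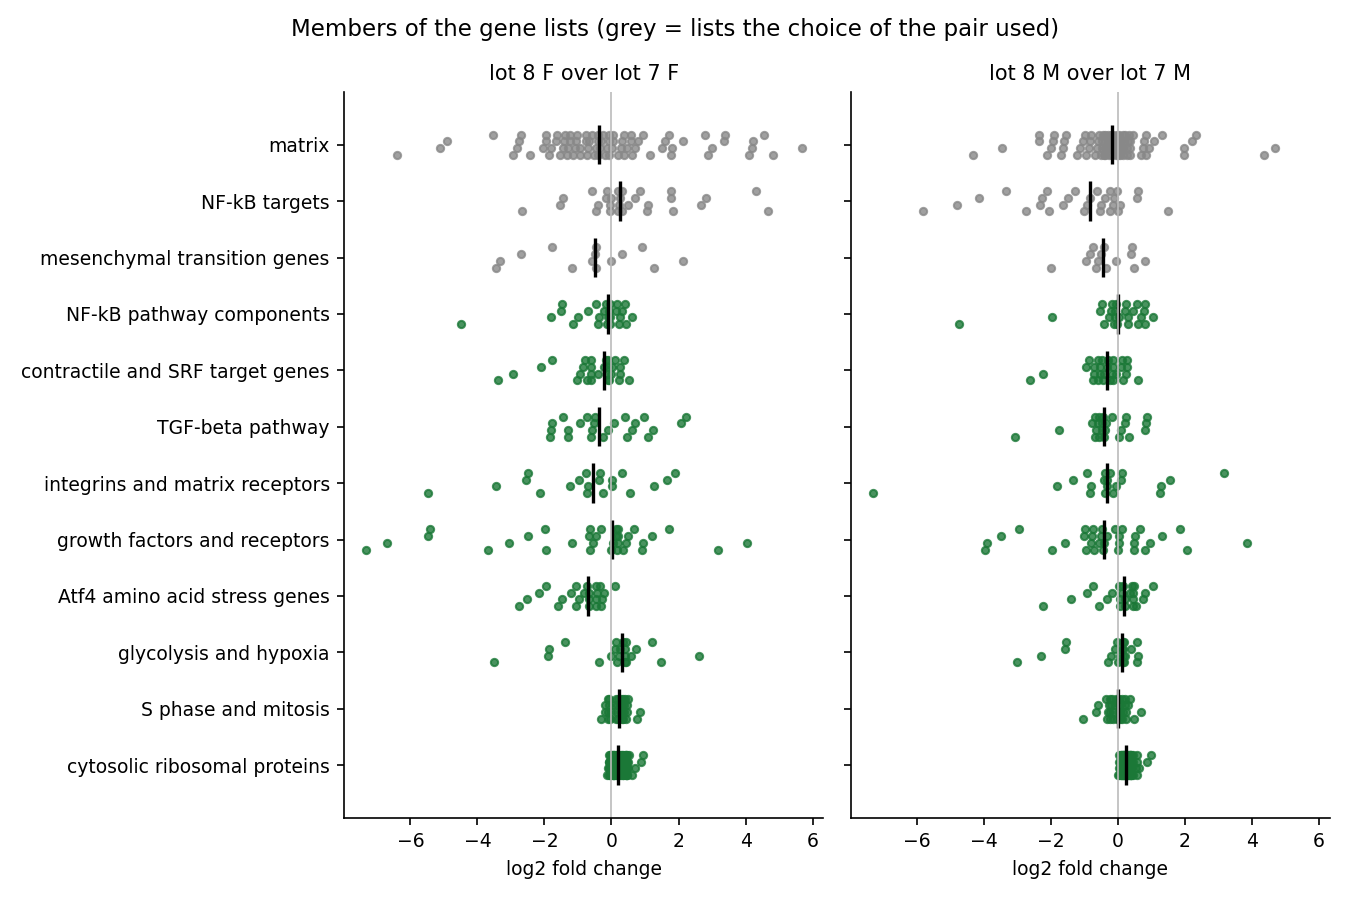
Log2 fold change of lot 8 over lot 7 for each measured member (points) of 12 gene lists, in the female lines on the left and the male lines on the right, with the median as a bar. Grey lists are the choosing lists, rebuilt to stand for the choice of the female pair. NF-kB targets have a median of 0.24 in the female and -0.82 in the male lines, and Atf4 genes of -0.71 and 0.18.

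The machinery of NF-kB signalling was not on the choosing lists and was tested. In the female lines 3 of 26 members passed, all lower in lot 8, and 5 without lot 8 replicate 3, with a median of -0.11. At 11.5% lower and 0 higher against 9.33% and 9.53% of all genes, the list did not stand out, and its 3 called members are given as single genes. Il1rl1, the receptor of interleukin 33, stood at 5.25, 9.81, 11.1 and 13.2 CPM in lot 8 and 205, 252, 130.4 and 303 CPM in lot 7, a log2 fold change of -4.48 (SE 0.35, adjusted p 9.98e-13). The lot 7 female line stood above all other female lines for it, which averaged 4.72 to 9.97 CPM. Tnfrsf1a, the main receptor of tumour necrosis factor, stood at 3.34, 7.85, 5.82 and 13.4 and 30.1, 24.2, 26.9 and 26.4 CPM (log2 fold change -1.80, SE 0.26, adjusted p 1.60e-06), and Il1rap, the partner of interleukin 1 receptors, fell by 1.47 (adjusted p 0.00248). The subunit Rela did not pass, at 38.3 ± 3.62 and 52.95 ± 11.5 CPM, a log2 fold change of -0.47 (SE 0.18, adjusted p 0.0638), nor did Nfkb1 or Rel.

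A receptor chain of the STAT3 pathway was lower in the lot 8 line as well. Il6st, the signalling chain shared by interleukin 6 family receptors, stood at 17.9, 25.5, 22.6 and 14.8 CPM in lot 8 and 48.5, 51.1, 53.6 and 64.6 CPM in lot 7, a log2 fold change of -1.43 (SE 0.27, adjusted p 1.57e-04) with no overlap. Of 15 STAT3 pathway members 4 passed, all lower, but the calls of the other 3, Ptpn11, Lifr and Jak2, were lost under several alternatives, and 1 member was called lower without lot 8 replicate 1 or without lot 7 replicate 3. The 4 are 26.7% of the list, where 9.33% of all genes were called lower. Stat3 itself did not pass, at 6.87 ± 1.79 and 9.88 ± 2.32 CPM. Of 18 STAT3 targets 2 rose and 5 fell, or 3 without lot 8 replicate 4. With all libraries that is 11.1% and 27.8% of the list, against 9.53% and 9.33% of all genes. The higher share was thus near that of all genes. Ccnd1, cyclin D1, stood at 446, 465, 469.5 and 364 and 202, 165, 163 and 125 CPM (log2 fold change 1.41, SE 0.15, adjusted p 2.20e-09) and Myc rose by 0.60 (adjusted p 4.61e-04), whereas Cebpd fell by 1.74 (adjusted p 6.70e-06) and Cebpb by 1.08 (adjusted p 6.59e-04). In the male lines 0 of 15 STAT3 pathway members passed by edgeR, with 3 under an unadjusted p of 0.05, and 0 passed by DESeq2 and 0 by limma voom.

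Of 29 contractile genes 11 fell in the lot 8 female line, 1 rose and 17 did not pass, which is 37.9% lower and 3.45% higher against 9.33% and 9.53% of all genes. Acta2, smooth muscle actin, stood at 1924, 1702, 2287 and 1475 CPM in lot 8 and 8232, 8031, 8215 and 7385 CPM in lot 7, a log2 fold change of -2.11 (SE 0.14, adjusted p 1.75e-14). Cnn1, calponin, stood at 12.6, 11.6, 11.8 and 9.32 and 115, 113, 131 and 111 CPM, a log2 fold change of -3.38 (SE 0.43, adjusted p 1.69e-07). The libraries of the lines lay far apart for both genes. Myl9, a myosin light chain with a CArG box in the promoter stretch shown and named after its values were seen, stood at 85.6, 102, 123 and 46.4 and 331, 265, 419 and 198 CPM (log2 fold change -1.76, SE 0.26, adjusted p 2.40e-06).

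Broadly expressed members moved less. Tpm4 fell by 0.61 (adjusted p 1.79e-07) and Cnn3 by 0.62 (adjusted p 2.38e-06) on the log2 scale, to 518 and 395 CPM. Among the other female lines Acta2 averaged 4761 to 14807 CPM, so the lot 8 line was the lowest of the 5. Markers of pericytes and smooth muscle, which also hold contractile proteins, summed to 19.6 to 37.1 CPM in lot 8 and 29.2 to 50.1 CPM in lot 7. Of 10 markers 6, among them Rgs5, Kcnj8 and Des, had no count in either line. Only 3 could be tested, of which 2 were higher in lot 8 and 1, Pdgfrb, was lower, with a median log2 fold change of 1.98. The part of such cells in the contractile genes was not tested. In the male lines 7 of 29 members fell, or 24.1% against 6.16% of all genes. There 1 member, Acta2, rose, by 0.59 (SE 0.14, adjusted p 0.002805), or 3.45% against 4.7%. The difference between the sexes was called for Acta2 (log2 fold change -2.69, SE 0.19, adjusted p 2.70e-13) and Cnn1 (log2 fold change -3.63, SE 0.63, adjusted p 6.88e-05). Without replicate 4 of either female line, 11 members were called lower and 1 higher.

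Over 24 members of the TGF-beta pathway, 4 rose and 6 fell in the lot 8 female line, 16.7% against 9.53% of all genes and 25% against 9.33%. Of 7 ligands and activators 4 passed, all lower, and of 9 receptors and Smads 2 passed, both higher. Inhba, a chain of activin, stood at 47.5, 65.9, 42.6 and 69.1 CPM in lot 8 and 150.3, 213, 173 and 234 CPM in lot 7, a log2 fold change of -1.77 (SE 0.23, adjusted p 2.32e-07). Ltbp1, which stores latent TGF-beta in the matrix, fell by 1.31 (adjusted p 3.69e-07) and Tgfb2 by 1.84 (adjusted p 3.59e-06). The activin antagonist Fst rose, from 7.43, 13.1, 4.06 and 18.2 CPM in lot 7 to 45.3, 40.6, 59.3 and 35.7 CPM in lot 8 (log2 fold change 2.08, SE 0.39, adjusted p 1.23e-04). Among the male lines Inhba did not pass (log2 fold change 0.04, SE 0.23, adjusted p 0.947), and the difference between the sexes was -1.81 (SE 0.32, adjusted p 1.05e-04).

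YAP target genes did not move together, with 5 of 18 higher and 3 lower in lot 8, 27.8% and 16.7% against 9.53% and 9.33% of all genes. The receptor kinase Axl stood at 359.9, 362, 344 and 335 CPM in lot 8 and 133, 163, 143 and 153 CPM in lot 7, a log2 fold change of 1.24 (SE 0.11, adjusted p 2.26e-11). F3, tissue factor, stood at 48.7, 46.5, 58.1 and 42.2 and 255, 291, 244 and 236 CPM (log2 fold change -2.39, SE 0.18, adjusted p 5.33e-13). Neither gene's libraries overlapped, and the female change differed from the male one for both, by 1.42 (SE 0.15, adjusted p 7.89e-09) and -1.47 (SE 0.26, adjusted p 8.51e-05).

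Of 20 cell surface receptors for matrix, 9 fell in the lot 8 female line, 2 rose and 9 did not pass, which is 45% lower against 9.33% of all genes and 10% higher against 9.53%. The collagen receptors Ddr2 and Itga1 fell, Ddr2 from 17.02 ± 3.72 to 1.58 ± 1.42 CPM (log2 fold change -3.46, SE 0.36, adjusted p 2.30e-09) and Itga1 from 9.73 ± 1.88 CPM to 0.188 ± 0.145 CPM, which is under the floor of 3 counts. Itgb5 fell by 1.24 (adjusted p 1.96e-06) and the syndecan Sdc2 by 0.72 (adjusted p 3.14e-05). Among the male lines 3 members rose and 3 fell, 15% each, against 4.7% and 6.16% of all genes. Without replicate 4 of either male line 1 rose. Ddr2 rose there (log2 fold change 1.30, SE 0.32, adjusted p 0.00485), a call that was lost without replicate 4 (adjusted p 0.0881), and its difference between the sexes was -4.75 (SE 0.48, adjusted p 2.25e-09).

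Growth factors and their receptors gave 4 genes higher and 12 lower of 34 in the lot 8 female line. The higher share, 11.8%, was near the 9.53% of all genes, and the lower share was 35.3% against 9.33%. Igf1, insulin-like growth factor 1, stood at 0.477, 0.218, 0.728 and 2.29 CPM in lot 8 and 33.4, 42.01, 25.9 and 71.6 CPM in lot 7, a log2 fold change of -5.43 (SE 0.50, adjusted p 1.02e-10). Igfbp2, which binds such factors, stood at 0.716, 4.14, 2.91 and 1.58 and 138, 92.8, 104 and 85.6 CPM (log2 fold change -5.47, SE 0.34, adjusted p 4.08e-15). Igfbp3, of the same family, lay the other way at 50.3, 82.9, 35.7 and 109 and 13.3, 3.15, 23.9 and 3.53 CPM (log2 fold change 2.65, SE 0.36, adjusted p 7.41e-07). Igf1 and Igfbp2 fell in the male lines too, by 3.49 (adjusted p 8.41e-05) and 3.98 (adjusted p 4.08e-11), and Igfbp3 did not pass there (log2 fold change 0.05, SE 0.34, adjusted p 0.9603).

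Of 11 growth factor receptors 3 passed, all lower, or 27.3% against 9.33% of all genes. Pdgfrb, a receptor of platelet-derived growth factor and a marker of pericytes, stood at 1.19, 5.45, 3.46 and 5.45 CPM in lot 8 and 31.5, 25.9, 32.02 and 42.4 CPM in lot 7 (log2 fold change -3.05, SE 0.32, adjusted p 1.45e-09). Gas6, the ligand of Axl, fell by 3.69 (adjusted p 4.53e-10) in the female and by 3.90 (adjusted p 9.74e-08) in the male lines.

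Of 24 genes of the Atf4 response 12 fell in the lot 8 female line and the other 12 did not pass, with a median of -0.71, where 9.33% of all genes fell. Nupr1, a stress-induced chromatin protein, stood at 72.5, 112, 89.9 and 99.9 CPM in lot 8 and 601, 580.4, 342 and 1019 CPM in lot 7, a log2 fold change of -2.76 (SE 0.37, adjusted p 5.01e-07). Ddit3, which promotes cell death under stress, stood at 10.5, 10.2, 8.74 and 10.6 and 39.7, 22.6, 42.8 and 49.3 CPM (log2 fold change -1.95, SE 0.27, adjusted p 1.09e-06). Herpud1, of protein quality control, stood at 41.3, 39.5, 43.9 and 50.3 and 70.4, 80.2, 103 and 112 CPM (log2 fold change -1.06, SE 0.17, adjusted p 1.03e-05). No library of lot 8 reached the range of lot 7 for these 3 genes.

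Chac1, which degrades glutathione, and Asns, asparagine synthetase, are named for the promoter stretches shown, after their values were seen. Chac1 stood at 7.87, 1.31, 5.095 and 9.499 CPM in lot 8 and 28.9, 18.9, 34.05 and 25.1 CPM in lot 7 (log2 fold change -2.16, SE 0.36, adjusted p 2.57e-05) and Asns at 76.6, 82.2, 78.98 and 106 and 130.2, 109.9, 163 and 142 CPM (log2 fold change -0.66, SE 0.12, adjusted p 1.24e-04). In the male lines 3 Atf4 genes rose and 2 fell, or 12.5% and 8.33%, against 4.7% and 6.16% of all genes. The counts were 1 each without single libraries such as lot 7 replicate 2 or lot 8 replicate 1. The male median was 0.18. The difference between the sexes passed for 10 of 24 genes, each lower in the female comparison, where 5.74% of all genes passed in that direction. Nupr1 fell in the male lines also (log2 fold change -2.23, SE 0.37, adjusted p 4.90e-05). Among the female lines, the lot 7 line had the highest and the lot 8 line the lowest mean of Nupr1 and Ddit3, with 162 to 406 and 30.7 to 37.8 CPM in the other 3. Without replicate 4 of either female line, 14 members were called, all lower. Among 16 chaperones of the endoplasmic reticulum, whose number of calls varied with single libraries, Calr, calreticulin, fell by 0.52 (adjusted p 0.00101).

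**Figure D3:**
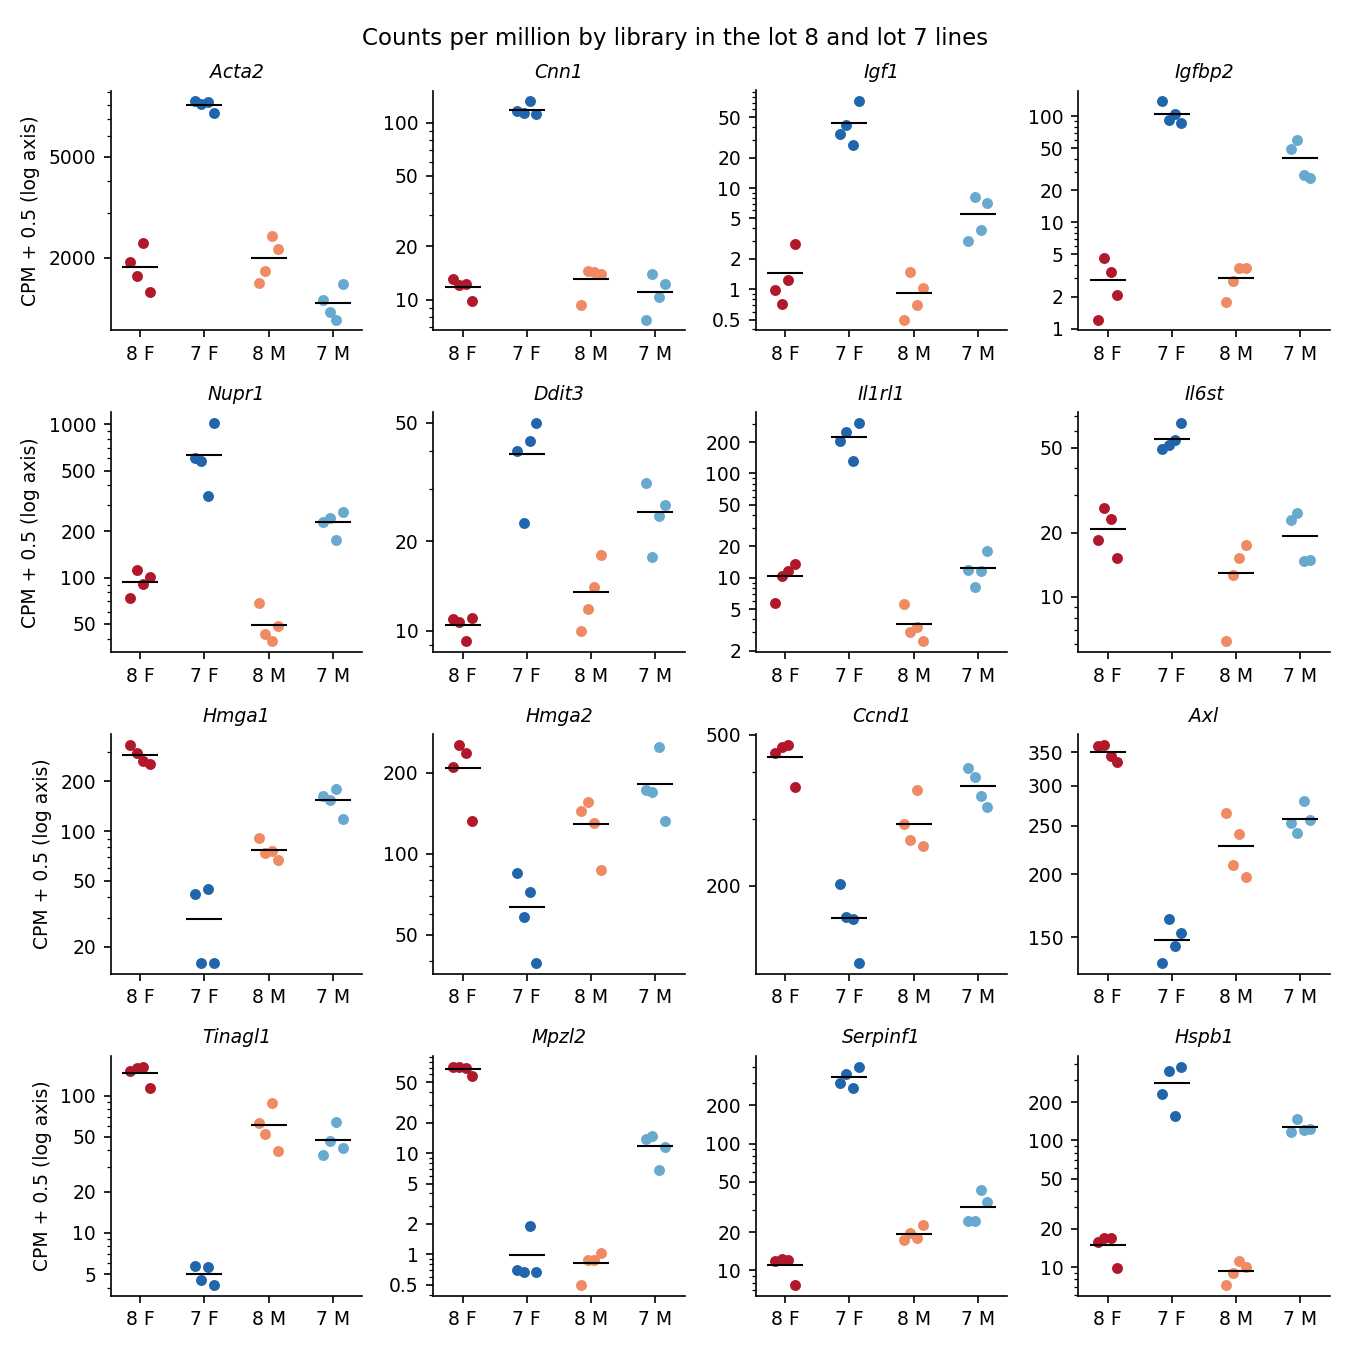
CPM plus 0.5 on log axes in each library (points) and line mean (bars) for 16 genes, in the lot 8 and lot 7 lines of each sex. Acta2 and Cnn1 separate the female lines, with means of 1847 and 7966 CPM for Acta2, while the means of Cnn1 are 12.6 and 10.6 CPM in the lot 8 and lot 7 male lines. Igf1, Igfbp2, Nupr1 and Hspb1 are lower in lot 8 in both sexes.

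Of 22 genes of glycolysis and of the response to low oxygen, 8 rose in the lot 8 female line and 3 fell, 36.4% against 9.53% of all genes and 13.6% against 9.33%. Ldha, lactate dehydrogenase, stood at 2149, 1752, 1763 and 2120.1 CPM in lot 8 and 1388, 1350.2, 1211 and 1305 CPM in lot 7 (log2 fold change 0.57, SE 0.11, adjusted p 1.25e-04), and Pkm, pyruvate kinase, at 2604 ± 84.3 and 1909.7 ± 214 CPM (log2 fold change 0.45, SE 0.08, adjusted p 1.46e-04). The 3 that fell included Ndrg1 and Adm, which respond to low oxygen, by 1.87 (adjusted p 9.94e-05) and 1.90 (adjusted p 5.43e-06). Of 17 targets of the antioxidant factor NRF2, 4 rose (23.5%), among them Gstm1, a glutathione transferase (log2 fold change 1.29, SE 0.24, adjusted p 1.38e-04), and the other 13 did not pass.

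Few genes of the cell cycle passed between the female lines. Of 34 genes of S phase and mitosis 1 passed, or 2.94% higher and 0% lower, against 9.53% and 9.33% of all genes. It was Ccna2, cyclin A2, which rose by 0.86 (adjusted p 3.53e-04) from 94.4 ± 28.2 to 171 ± 17.7 CPM. Of 20 p53 targets 2 rose and 2 fell, 10% each way, which is near the shares of all genes. With any 1 of the 8 libraries left out 1 rose, and 4 fell without lot 7 replicate 1. Cdkn1a, the cell cycle inhibitor p21, stood at 17.4, 21.4, 6.55 and 7.04 CPM in lot 8 and 53.8, 64.6, 18.3 and 87.8 CPM in lot 7 (log2 fold change -2.12, SE 0.39, adjusted p 8.81e-05), with lot 7 replicate 3 within the range of lot 8. The difference between the sexes was -3.41 (SE 0.55, adjusted p 2.53e-05). Dusp1, a phosphatase induced by ERK and stress kinases, fell from 111, 119, 107 and 117 CPM to 20.99, 22.2, 17.7 and 31.5 CPM (log2 fold change -2.29, SE 0.19, adjusted p 2.94e-12), in a list of 21 ERK genes of which 3 rose and 2 fell, or 4 without replicate 4 of either line. The shares of this list with all libraries were 14.3% higher and 9.52% lower, the latter near that of all genes.

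Hmga1 and Hmga2, chromatin proteins abundant in embryonic and tumour cells, rose in the lot 8 female line, in a list of 5 tested genes of which 2 rose and 1 fell. That is 40% and 20% of a short list, against 9.53% and 9.33% of all genes. The member that fell was Igf2bp1, which binds messenger RNA, at 1.37 ± 0.3997 against 5.19 ± 0.529 CPM (log2 fold change -1.92, SE 0.45, adjusted p 0.00191). Hmga1 stood at 331, 297, 264 and 254 CPM in lot 8 and 41.2, 15.6, 44.05 and 15.5 CPM in lot 7, a log2 fold change of 3.30 (SE 0.25, adjusted p 4.24e-13). Hmga2 stood at 209.7, 253, 236 and 132 and 84.6, 57.6, 71.7 and 38.8 CPM (log2 fold change 1.72, SE 0.27, adjusted p 8.74e-06). Lot 8 was the highest female line for both, above 19.6 to 87.2 and 23.5 to 73.9 CPM in the other 3. Hmga1 fell in the male lines (log2 fold change -1.003, SE 0.23, adjusted p 0.00222) and Hmga2 did not pass (log2 fold change -0.49, SE 0.26, adjusted p 0.249), and the difference between the sexes was 4.30 (SE 0.33, adjusted p 1.92e-12) for Hmga1.

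Transcription factors that mark brain regions and neural crest gave 6 genes higher and 9 lower of 32, 18.8% and 28.1% against 9.53% and 9.33% of all genes, and DESeq2 called 8 of the 32 in place of 15. Msx1 stood at 0, 0.436, 0.546 and 0 CPM in lot 8 and 18.4, 22.2, 16.1 and 10.9 CPM in lot 7, and the lot 8 libraries held 0, 2, 3 and 0 counts. Otx1, a forebrain factor, fell from 20.2 ± 2.29 to 1.16 ± 1.24 CPM (log2 fold change -4.06, SE 0.46, adjusted p 1.56e-08) and fell in the male lines as well (log2 fold change -2.16, SE 0.41, adjusted p 2.59e-04). Among 10 imprinted genes 3 rose and 1 fell, against the same shares. Grb10, an inhibitor of insulin receptor signalling, stood at 17.9, 15.9, 12.9 and 29.4 and 1.56, 1.58, 0.625 and 1.68 CPM (log2 fold change 3.80, SE 0.44, adjusted p 2.67e-08) and changed the other way in the male lines (log2 fold change -2.80, SE 0.44, adjusted p 1.73e-05).

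Of 19 interferon-stimulated genes 2 passed, both lower, or 10.5%, near the 9.33% of all genes. Of 10 genes of MHC class I presentation 4 passed, all lower, or 40%, but 1 without lot 8 replicate 4 and 1 by DESeq2. H2-T23, the presentation gene with the smallest p, fell from 33.4 ± 4.81 to 8.46 ± 4.42 CPM (log2 fold change -1.96, SE 0.31, adjusted p 8.18e-06). Of 26 sterol and fatty acid genes 2 passed, both lower, or 7.69%, under the share of all genes. Cyp51 fell by 1.12 (adjusted p 2.29e-04) and Dhcr7 by 1.61 (adjusted p 2.23e-04). Of 11 BMP and Id genes 1, or 9.09%, passed, Id3, which fell (log2 fold change -0.69, SE 0.16, adjusted p 0.00166). Of 7 X-linked genes that escape inactivation 0 passed by edgeR, with 0 under an unadjusted p of 0.05, 0 by DESeq2 and 0 by limma voom.

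Of 80 ribosomal protein genes 34 rose in the lot 8 female line and 46 did not pass, or 42.5% higher against 9.53% of all genes, with a median of 0.19. In the male lines 34 rose and 46 did not pass, where 4.7% of all genes rose, with a median of 0.23, and 9 rose in both sexes. Rpl34 rose from 847 ± 108 to 1549 ± 62.96 CPM in the female lines (log2 fold change 0.87, SE 0.09, adjusted p 2.06e-09). Many of these genes have near-identical copies in the genome, so reads may be split between them. Their summed share of a library was 23.7% ± 1.20 in lot 8 and 21.8% ± 0.493 in lot 7 (SD, n = 4), which did not pass an exact 2-sided permutation test (p = 0.0571, or 0.343 adjusted over 6 library measures). With library totals in place of TMM the female median was 0.12.

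The largest female fold changes outside the choosing lists came from genes of mixed function. Higher in lot 8 were Mpzl2, a cell adhesion protein, at 70.6, 71.1, 68.97 and 57.3 CPM against 0.195, 0.175, 1.41 and 0.168 CPM in lot 7, and Tinagl1, a secreted protein of basement membranes, at 149.6, 158, 162 and 112 against 5.28, 4.03, 5.15 and 3.699 CPM. Their log2 fold changes were 6.98 (SE 0.52, adjusted p 4.67e-13) and 4.996 (SE 0.24, adjusted p 1.90e-18). The other 10 of the 12 highest were Kcnn4, Ano1, Rasgrf1, Stmn2, Cyp1b1, S100a16, Cxcl14, Tppp3, C1qtnf12 and Krt12, with log2 fold changes of 3.87 to 6.95. S100a16, a calcium-binding protein, averaged 156 ± 47.3 against 6.09 ± 4.102 CPM and Cxcl14, a chemokine, 124 ± 44.1 against 6.57 ± 2.04 CPM. The lot 8 line was the highest of the 5 female lines for Mpzl2 and Tinagl1, with 0.0428 to 5.600 and 2.96 to 39.5 CPM in the other 3. Neuron markers, mostly Stmn2, summed to 16.5 to 55.5 CPM in lot 8 and 1.41 to 4.89 CPM in lot 7, with 4 of 7, among them Rbfox3 and Snap25, without a count in either line. Epithelial markers summed to 7.04 to 22.02 CPM in lot 8 and at most 0.875 CPM in lot 7, with 4 of 8, among them Krt5 and Krt14, without a count. The part of such cells in these genes was not tested.

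Lower in lot 8 were Serpinf1, a secreted inhibitor of vessel growth, at 11.4, 11.8, 11.6 and 7.21 CPM against 299.9, 354, 273 and 404 CPM, and Hspb1, a small heat shock protein, at 15.3, 16.4, 16.6 and 9.32 against 232, 354, 156 and 381 CPM. Their log2 fold changes were -4.99 (SE 0.26, adjusted p 1.64e-17) and -4.29 (SE 0.34, adjusted p 1.55e-12). Cd34, a sialomucin of stem and vascular cells, stood at 6.68, 12.6, 11.1 and 10.7 and 166, 143, 119 and 87.1 CPM (log2 fold change -3.63, SE 0.26, adjusted p 9.82e-14), and endothelial markers summed to 5.23 to 9.499 CPM in lot 8 and 10.9 to 19.95 CPM in lot 7, with 5 of 9 without a count in either line. With Igf1, Igfbp2 and Il1rl1, given above, the 12 lowest also held Nrep, Crct1, Cotl1, Rc3h2, Ptgs1 and Cbr3, at log2 fold changes of -5.61 to -4.24. Rc3h2 rests on 1 library, standing at 7.43, 6.83, 346 and 6.56 CPM in lot 7 against 1.67, 5.02, 3.82 and 5.63 CPM in lot 8, and without lot 7 replicate 3 its log2 fold change was -0.77 with an adjusted p of 0.238.

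Of the 2296 genes called in the female lines, 494 were also called in the male lines, which is 21.5% of the female and 37.4% of the 1322 male calls, where the male lines had 10.9% of all genes called. Of the 494, 331 changed in the same direction and 163 in opposite directions. Across the 12173 genes the log2 fold changes of the pairs, which share no libraries, had a Pearson correlation of 0.127, given as a description since genes are not independent replicates. The change of the female lines differed from that of the male lines for 1507 genes, or 12.4%. The female change was the higher for 6.64% of tested genes and the lower for 5.74%.

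Among the 24 genes with the largest female changes, 11 also passed in the male lines in the same direction, of which Igfbp2, Igf1, Serpinf1, Cotl1, Il1rl1, Ptgs1, Hspb1 and Cd34 fell and Rasgrf1, Stmn2 and Tppp3 rose. The male calls of Serpinf1, Ptgs1, Stmn2 and Tppp3 were lost when single male libraries were left out. Cd34 had a male log2 fold change of -3.63 (SE 0.25, adjusted p 1.46e-13) and Hspb1 of -3.83 (SE 0.35, adjusted p 1.56e-10), and the difference between the sexes did not pass for either (adjusted p 0.995 and 0.603). Mpzl2, Cyp1b1 and Krt12, higher in lot 8 among the female lines, were lower among the male lines, at -4.99 (SE 0.57, adjusted p 3.68e-08) for Mpzl2. Tinagl1, Crct1 and Cbr3 did not pass in the male lines, and their change differed between the sexes, by 4.64 (SE 0.30, adjusted p 2.85e-14), -6.78 (SE 0.66, adjusted p 7.58e-10) and -4.15 (SE 0.41, adjusted p 1.29e-09).

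**Figure D4:**
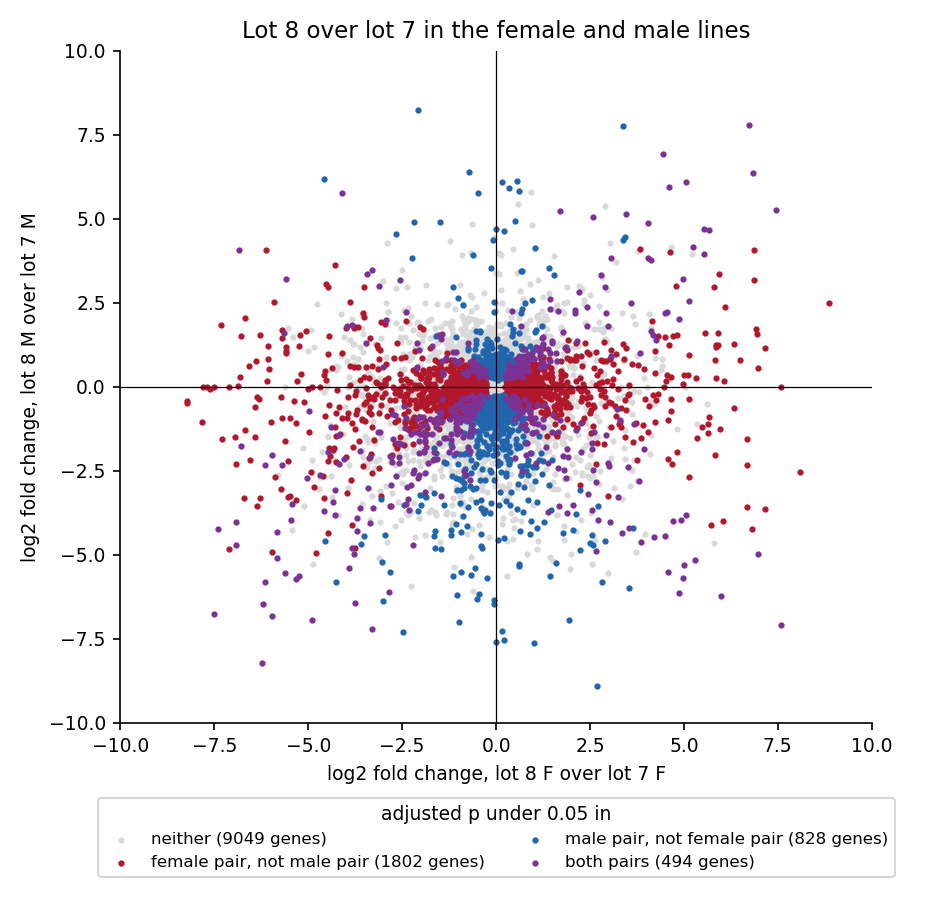
Log2 fold change of lot 8 over lot 7 in the female lines (x axis) and the male lines (y axis) for 12173 genes, coloured by the pair in which a gene passed. The 494 genes called in both pairs lie on both sides of each zero line, with 331 of the same sign in both pairs.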

How the data were processed

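BRB-seq gives 3' counts from polyadenylated RNA with sample barcodes. The table of whole-number counts per Ensembl gene was deposited by the authors, and the tools listed in the submitters' processing notes are Subread 2.0.2, STAR 2.7.6a and cutadapt 2.10, with build GRCm38. The annotation, the strand setting and any collapsing of molecular identifiers are not given in the sources used here, so overlapping and antisense genes cannot be separated. Of 46078 gene IDs 45229 matched GENCODE names and positions.

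The members and lists were chosen with earlier results of these data known. Scores used log2 CPM with a prior count of 2. Genes passing edgeR's expression filter (12173) were fitted over all 36 libraries with 1 coefficient per line (edgeR 4.0.16 in R 4.3.3, TMM, quasi-likelihood test), with p-values adjusted by Benjamini-Hochberg over all genes and a threshold of 0.05. Log2 fold changes are of lot 8 over lot 7. DESeq2 1.42.0, limma voom 3.58.1, other scalings and filters, a replicate block, thinned counts and left-out libraries were alternatives. Library measures were compared by exact permutation tests, which cannot go below p = 0.0286 for 4 against 4 libraries. Named genes were the 12 highest and 12 lowest fold changes in the female lines (protein-coding, autosomal, mean of at least 16 CPM, no overlap), up to 4 members per tested list by smallest p, up to 5 per subgroup of the choosing lists by highest mean, and a fixed set of NF-kB, matrix and identity genes, of which 1 is not reported here. No 2 libraries of a line were identical. Counts simulated for this comparison, with 11737 genes tested, gave back 52.3% of 65 genes changed 2-fold, 84.1% of 69 at 4-fold and 88.1% of 59 at 8-fold. Total counts per library set the precision, and intervals of counting error were not used.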

Additional observations from a re-analysis of the deposited data

Results flagged for a closer look

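In 9 of 118 groups of 4 libraries examined, the highest or lowest library stood far from the other 3 of its line, where chance alone gives this in about 1 of 20 groups. The lot 8 female replicate 4 had 0.324% mitochondrial mRNA against 0.608% or more in the other 3. Replicate 4 was low in this share in the other lines with 4 libraries as well. In the same lot 8 female library Mpzl2 (57.3 CPM) and Serpinf1 (7.21 CPM) were the lowest of the line. Lot 7 replicate 3 held 346 CPM of Rc3h2, 1.41 CPM of Mpzl2 and 0.625 CPM of Grb10, against at most 7.43 CPM, at most 0.195 CPM and at least 1.56 CPM in the other 3 libraries. Lot 7 replicate 4 held 108 CPM of Col1a1 against at most 42.8 CPM. Lot 8 replicate 1 held 48.4 CPM of Lox against at most 41.3 CPM, and lot 8 replicate 3 held 8.74 CPM of Ddit3 against at least 10.2 CPM.

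For 54 of 86 genes named outside the choosing lists, the change between lots 8 and 7 differed between the female and the male lines. The threshold was an adjusted p under 0.05 by edgeR, which 12.4% of all genes tested passed. Most of the 86 were named for large changes or small p-values in the same female libraries. The choice itself thus raised this count, which is not read as a result. Values are the female minus the male log2 fold change. Among contractile and YAP target genes it was -2.69 for Acta2, -3.63 for Cnn1, -0.75 for Tpm4, -0.57 for Cnn3, -1.47 for F3, 1.42 for Axl and 2.61 for Igfbp3. Among signalling genes it was -2.52 for Il1rl1, -1.39 for Tnfrsf1a, -1.66 for Cebpd, -1.33 for Cebpb, -1.81 for Inhba, -1.15 for Tgfb2, -0.83 for Ltbp1, -2.43 for Dusp1 and -3.10 for Pdgfrb. For matrix receptors it was -4.75 for Ddr2, -4.54 for Itga1 and -0.92 for Itgb5.

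Among Atf4 and chaperone genes the difference was -3.21 for Chac1, -1.08 for Herpud1, -0.86 for Asns and -0.55 for Calr. Among genes of the cell cycle and metabolism it was -3.41 for Cdkn1a, 1.74 for Ccnd1, 1.19 for Trp53, -2.02 for Ndrg1, 0.76 for Pkm, -0.98 for Cyp51 and -1.64 for Dhcr7. For chromatin, imprinted, presentation and regional genes it was 4.30 for Hmga1, 2.21 for Hmga2, 6.61 for Grb10, -1.78 for H2-T23, -3.92 for Msx1 and -1.90 for Otx1.

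Among the genes with the largest female changes, those higher in the lot 8 female line gave differences of 11.96 for Mpzl2, 8.70 for Cyp1b1, 8.501 for Krt12, 5.39 for C1qtnf12, 5.38 for Kcnn4, 5.36 for S100a16, 5.04 for Ano1, 4.64 for Tinagl1, 3.83 for Cxcl14, 2.86 for Stmn2 and 2.47 for Tppp3. Those lower there gave -6.78 for Crct1, -5.46 for Rc3h2, -4.28 for Serpinf1, -4.15 for Cbr3, -4.005 for Nrep, -3.19 for Ptgs1 and -2.05 for Cotl1. The female fold change of Rc3h2 rests on lot 7 replicate 3, without which its difference between the sexes was -1.74 (adjusted p 0.040). With single libraries left out the difference between the sexes lost its call for Itga1, at an adjusted p of up to 0.388 (without lot 8 male replicate 2), Stmn2 up to 0.127 (lot 7 male replicate 2), Tgfb2 up to 0.114 (lot 8 male replicate 4), Otx1 up to 0.103 (lot 8 female replicate 3), Cyp51 up to 0.0893 (lot 7 female replicate 4), Calr up to 0.0739 (lot 8 male replicate 2) and Ltbp1 up to 0.0615 (lot 7 female replicate 4). Without replicate 4 of all 4 lines it was lost as well for Dhcr7 (adjusted p 0.0753), H2-T23 (0.0704) and Tppp3 (0.0787), and by limma voom for Rc3h2 (0.142).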

How the results depend on the processing

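Across scaling, filters, tests, thinned counts and left-out libraries, the number of calls was 1742 to 2351 in the female lines, 918 to 1687 in the male lines and 1082 to 1755 for the difference between the sexes. Leaving out 1 library gave 1943 to 2069, 974 to 1144 and 1305 to 1444. With library totals alone the share of higher calls went from 50.5% to 40.3% in the female lines and from 43.3% to 28.4% (393 of 1385) in the male lines, where the median of all genes shifted to -0.11. Without replicate 4, 355 genes were higher in the male lines and 9 matrix genes lower, with fewer libraries per line. The male matrix count was 4 to 9 higher and 11 to 14 lower with single libraries left out. The difference in mitochondrial share between the female lines, which did not pass, ranged from -0.134 to 0.0264 percentage points and changed sign without lot 8 replicate 4 (0.0264) and without lot 7 replicate 3 (0.00627). Correlations between the female libraries were 0.00422 to 0.230 for equal replicate numbers and -0.133 to 0.0945 for others. Replicate 4 of both lines gave the highest, 0.230, while 1 of 4 lot 8 libraries correlated better with another number. The replicate number was thus shared in part between the lines, and the main fit holds no term for it. With the replicate number as a block and only the lines compared in the fit, calls were 1038 higher and 1078 lower in the female lines. That is 2116 in all, against 1980 in the same fit without the block. In the male lines the block gave 760 and 927 calls, with 11 matrix genes higher. Of 4515 alternatives for single genes and comparisons, 4328 kept direction and call, 158 lost the call, 29 moved and 0 reversed, a label kept for called differences. Moved covers genes not tested in the female lines and includes changes of sign where the difference was small. Nfkb2, with the higher mean in lot 8, went to -0.035 without lot 8 replicate 3. Tnfaip3, with the lower mean, went to 0.131 without lot 7 replicate 3. By DESeq2 the female lines gave 4 calls among interferon-stimulated genes and 10 among ERK genes, in place of 2 and 5 by edgeR. Depth limits genes near 0.502 to 0.688 CPM, the level of 3 counts.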
